A study of Mus musculus with 12 samples.

Results

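The comparison described here is the second round of reprogramming, NT-iPSCs against iPSCs. NT-iPSCs are pluripotent cells made by moving the nucleus of an iPSC into an enucleated oocyte, and iPSCs are the cells made from fibroblasts by defined factors in the first round. The members were all miRNAs with a value above the table minimum in at least 2 of the 4 libraries, NT-iPSC 51 and 52 and iPSC 62 and 63. This rule took 838 of the 1042 miRNAs in the deposited table. Of these 838, 724 also held at least 10 reads in at least 2 of the 12 libraries of the series and were tested, and 114 were below that limit. Another 8 miRNAs were tested with them but were no members. Reads were found in all 4 libraries for 734 members, in 3 for 63 and in 2 for 41. The 41 members with reads in only 2 libraries held at most 6 reads in a library, and the 46 miRNAs left out with reads in only 1 library held at most 4.

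The series profiled small RNA of 18 to 30 nt from 5 mouse cell types, each 1 line, as separate batches of RNA. The iPSCs came from C57B6/129SvJae F1 mouse embryonic fibroblasts (MEFs) that carried Oct4, Sox2, Klf4 and c-Myc on a lentivirus switched on by doxycycline. The NT-iPSCs have the same C57B6/129SvJae F1 background and went through the factors first and through an oocyte second, so their nuclei come from cells that carried the factor transgenes, while the sources used here do not state whether the iPSC line sequenced is the one that gave the nucleus. NT-ESCs (MEF nucleus into an oocyte, same background, 2 libraries), E14 ESCs (129/ola, 3 libraries) and MEFs (3 libraries) were used for context. All pluripotent cells, both types compared here included, were grown with LIF on irradiated MEFs, so each library can hold RNA from feeder cells. No knockout or drug treatment was part of this comparison. Because the replicates are RNA batches of 1 line per type, the p-values cover only the spread between batches, which may be technical, and a difference between the reprogramming routes cannot be told apart from a difference between 2 lines.

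A miRNA is a short RNA that guides Argonaute proteins to messenger RNAs, mostly by pairing of its bases 2 to 8, the seed, and lowers the output of its targets. In mouse pluripotent cells, the miR-290 to miR-295 and miR-302/miR-367 clusters have members with 1 common seed and promote fast cycling and self-renewal. The let-7 family acts the other way: it accumulates as cells differentiate, represses Lin28, Myc and other genes of the undifferentiated state, and is held down in ESCs by Lin28, which blocks its maturation.

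The sequences that carry the main differences follow, 5′ to 3′, from the RefSeq annotation of GRCm38.p6, with the seed in capitals. The first 6 are let-7 family members with 1 seed, all called higher in NT-iPSCs.
let-7f-5p: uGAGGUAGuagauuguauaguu
let-7a-5p: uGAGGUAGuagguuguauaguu
let-7b-5p: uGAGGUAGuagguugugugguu
let-7d-5p: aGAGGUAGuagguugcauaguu
let-7i-5p: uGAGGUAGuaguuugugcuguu
miR-98-5p: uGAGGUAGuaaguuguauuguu
The next 4 share the seed of the pluripotency clusters, the first being of the miR-302/miR-367 cluster and the other 3 of the miR-290 to miR-295 cluster, and are shown because only the first was called lower.
miR-302d-3p: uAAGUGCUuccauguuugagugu
miR-291a-3p: aAAGUGCUuccacuuugugugc
miR-294-3p: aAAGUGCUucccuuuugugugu
miR-295-3p: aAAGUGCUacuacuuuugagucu
The last 8 are described with the other miRNA groups, the first 6 higher and the last 2 lower in NT-iPSCs.
miR-10a-5p: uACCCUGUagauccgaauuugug
miR-10b-5p: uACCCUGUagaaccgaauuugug
miR-99a-5p: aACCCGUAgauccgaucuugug
miR-125b-5p: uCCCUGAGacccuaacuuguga
miR-199a-3p: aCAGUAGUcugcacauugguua
miR-221-5p: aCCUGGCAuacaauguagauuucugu
miR-210-3p: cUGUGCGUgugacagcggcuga
miR-134-5p: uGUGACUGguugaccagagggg

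The deposited values are read counts that the authors normalised and passed through the variance stabilising transformation (VST) of DESeq, on a log2 scale with a minimum of 0.586. A VST of 10 stood for about 236 normalised reads, and among rare miRNAs a VST difference understates the log2 fold. The transformation was inverted to give whole reads, which numbered 7499416 and 7262088 in the NT-iPSC libraries and 5293867 and 6088839 in the iPSC libraries. At these depths, 3 reads were 0.400 to 0.567 CPM (counts scaled to library size), and 806 to 818 miRNAs had at least 1 read in each library. The libraries of each type differed little for most miRNAs, with a median gap of 0.21 between the NT-iPSC libraries and of 0.26 between the iPSC libraries among miRNAs with a mean VST over 10. Of the markers fixed for pluripotent cells, the miR-290 to miR-295 cluster held 13.5% to 20.7% of the reads in the 4 libraries and at most 0.00125% in MEFs.

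Of 732 miRNAs tested, 98 were higher and 96 were lower in NT-iPSCs than in iPSCs (limma, adjusted p under 0.05), or 13.4% and 13.1% of those tested, and 26.5% in either direction. All 194 were members, and in all of them both NT-iPSC libraries lay on the same side of both iPSC libraries. Absence of overlap alone was common, with 30.7% of tested miRNAs higher and 32.4% lower in both NT-iPSC libraries. The differences of the called miRNAs ran from -3.33 to 3.49 on the log2 scale, the smallest being 0.53 in size, and 146 were at least 1. How many of them were higher and how many lower moved with the choice of scaling. With upper quartile scaling 63.4% of the calls were higher in NT-iPSCs, against 50.5% with the deposited size factors, 25.3% when the 10 most abundant miRNAs were left out of the table and 21.0% with scaling to total reads. These scalings shift the differences by 0.17, -0.42 and -0.54, respectively, while trimmed mean scaling shifted them by -0.02. Differences below are relative to the deposited size factors. The count of lower miRNAs was 61 without NT-iPSC 52 and 63 without iPSC 62.

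**Figure D1:**
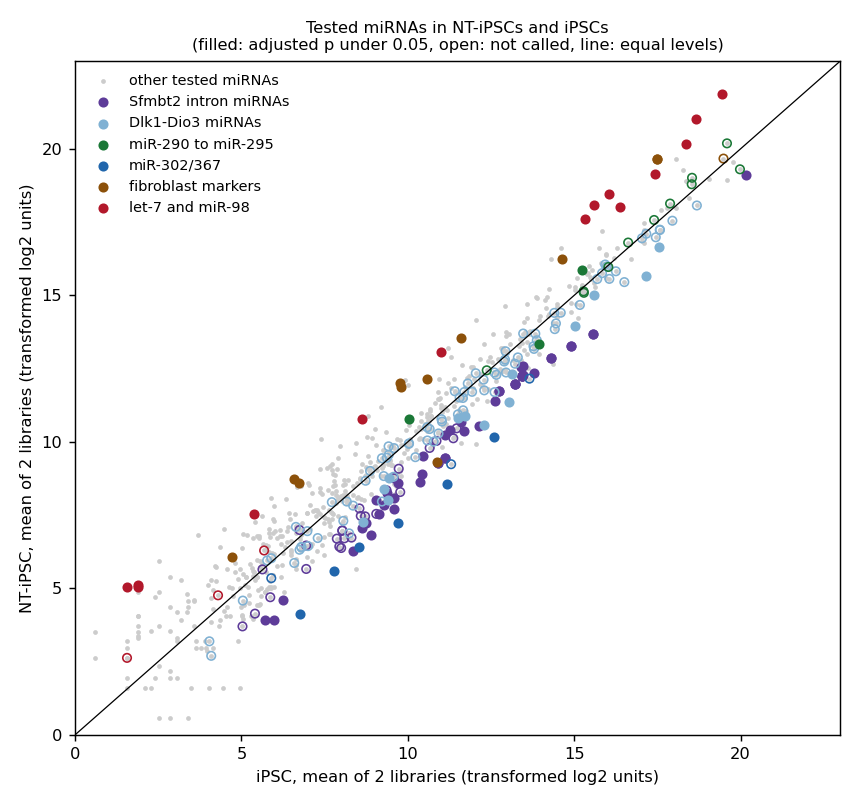
Mean VST (transformed log2 units) of the 2 NT-iPSC libraries against that of the 2 iPSC libraries, 1 point per tested member, with 6 lists in colour, filled where the adjusted p was under 0.05 and open where not. The let-7 family and 11 of 12 fibroblast markers lie above the line of equal levels, and the miR-302/miR-367 cluster and most Sfmbt2 miRNAs lie below it.

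The let-7 family stood out among the miRNAs higher in NT-iPSCs. Of 17 tested members of the family with miR-98, 14 were higher, against 13.4% of all tested miRNAs, and none was lower. Their median difference was 2.16 against 0.00 over all tested miRNAs. The most abundant, let-7f-5p, had a VST of 21.97 and 21.77 in the NT-iPSC libraries and of 19.40 and 19.51 in the iPSC libraries. Both NT-iPSC libraries were thus above both iPSC libraries, and the difference was 2.42 ± 0.17 (SE, n = 2 and 2, limma adjusted p = 2.0e-05). let-7a-5p reached 21.00 in both NT-iPSC libraries and 18.61 and 18.68 in the iPSC libraries, a difference of 2.35 ± 0.20 (limma adjusted p = 2.8e-05). let-7b-5p, at 17.96 and 18.17 against 15.63 and 15.55, differed by 2.47 ± 0.24 (limma adjusted p = 5.1e-05). These 3 differ from each other by a few bases outside the seed, so reads of 1 may have been assigned to another, and their separate values are less certain than their common direction.

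The rest of the family moved in the same direction. let-7d-5p (17.62 and 17.61 against 15.16 and 15.50) was higher by 2.28 ± 0.19, and let-7i-5p (18.12 and 18.77 against 16.02 and 16.08) by 2.39 ± 0.29. The groups did not overlap for either miRNA. miR-98-5p, encoded beside let-7f on the X chromosome, was higher by 2.04 ± 0.20, while let-7c-5p, let-7e-5p and let-7g-5p were higher by 1.79 ± 0.20, 1.73 ± 0.20 and 1.65 ± 0.22. All 9 tested miRNAs with the seed GAGGUAG were called higher, with a median of 2.28. Their genes lie on several chromosomes, and some lie close together and share a host gene. In GENCODE M21 (GRCm38), Mirlet7a-1 (chr13:48538179-48538272), Mirlet7f-1 (chr13:48537829-48537917) and Mirlet7d (chr13:48536012-48536114) lie within exons of the noncoding gene 6720427I07Rik. Mirlet7b (chr15:85707319-85707403) and Mirlet7c-2 lie in exons of Lncppara. Mirlet7f-2 (chrX:151912346-151912428) and Mir98 lie in introns of Huwe1, and Mirlet7i (chr10:122985640-122985724) lies outside the genes searched.

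The passenger strands were far rarer and followed. let-7d-3p had a VST of 10.58 and 10.98 in NT-iPSCs and of 8.61 and 8.64 in iPSCs, a difference of 2.16 ± 0.45 (limma adjusted p = 0.00494). let-7f-1-3p had 9 and 8 reads in NT-iPSCs and 1 and 0 in iPSCs, and let-7a-1-3p had 6 and 13 against 2 and 0. The 2 iPSC libraries were below both NT-iPSC libraries in each case, at read numbers where a fold is not given. let-7c-2-3p repeats nearly the same reads as let-7a-1-3p, so the 2 calls are not separate. The call of let-7f-1-3p was lost without NT-iPSC 51, NT-iPSC 52 or iPSC 63 (limma adjusted p = 0.0901, 0.0762 and 0.161), and that of let-7a-1-3p without NT-iPSC 52 (0.0652). The members not called were let-7b-3p (1 and 1 reads against 1 and 0), let-7i-3p (2 and 20 against 9 and 3) and miR-98-3p (25 and 18 against 13 and 18).

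In shares of all miRNA reads, the let-7 family made up 33.7% and 33.5% of the NT-iPSC libraries and 11% and 10.1% of the iPSC libraries. The mean share was 3.19 times as high in NT-iPSCs. let-7f-5p alone took 15.5% and 13.8% of the reads against 4.13% and 3.87%, and let-7a-5p 7.89% and 8.08% against 2.39% and 2.19%. With 2 libraries against 2, an exact permutation test of a share cannot reach a p of 0.05, and none was run. The share in NT-iPSCs was also above that in MEFs, which was 18.3% to 21.8%, and above that in ESCs, which was 6.68% to 8.52%. NT-ESCs, at 27% and 26.9%, were likewise above iPSCs, MEFs and ESCs. In bulk RNA, fewer cells of a type and less RNA per cell cannot be told apart.

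**Figure D2:**
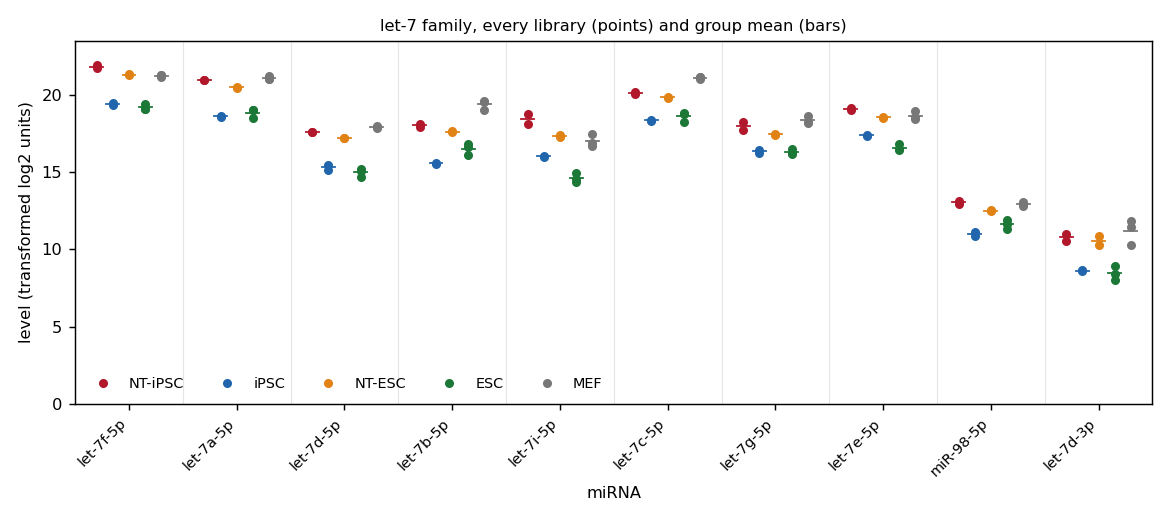
VST (transformed log2 units) of 10 let-7 family miRNAs in every library of the 5 cell types (points) with the group mean (bar). The 2 NT-iPSC points lie above the 2 iPSC points for each of the 10, and for let-7f-5p (21.97 and 21.77) also above the MEF points (21.18 to 21.31).

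Markers of fibroblasts, the feeder cells, moved with let-7. Of 12 tested members of the fibroblast list, 10 were higher in NT-iPSCs, against 13.4% of all tested miRNAs. The 1 member called lower was miR-21-3p, against 13.1% of all tested miRNAs, and the median was 1.91. miR-199a-3p and miR-199b-3p, which share nearly all reads, had a VST of 19.77 and 19.51 in NT-iPSCs and of 17.44 and 17.55 in iPSCs and were higher by 2.15 ± 0.23 (limma adjusted p = 8.4e-05). miR-199a-5p was higher by 2.25 ± 0.32, miR-145-3p by 2.18 ± 0.22, miR-214-3p by 2.09 ± 0.30 and miR-143-3p by 1.60 ± 0.27. miR-21-5p, the most abundant miRNA of the list in MEFs, had a VST of 19.61 and 19.72 in NT-iPSCs and of 19.56 and 19.41 in iPSCs, a difference of 0.18 ± 0.18 (limma adjusted p = 0.537), and 23.38 to 23.64 in MEFs. miR-21-3p was lower by 1.57 on this scale (VST 8.33 and 10.27 against 11.16 and 10.58, SE 0.50, limma adjusted p = 0.0379).

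The fibroblast list held 10.2% and 9.51% of the NT-iPSC reads, 6.97% and 5.77% of the iPSC reads and 31.5% to 36.9% of the MEF reads, with the reads shared by miR-199a-3p and miR-199b-3p counted in both. None of its 12 members was at 0 reads in any of the 4 libraries. miR-199a-3p in NT-iPSCs was above its VST of 18.29 to 19.01 in MEFs, whereas miR-143-3p (15.99 and 16.46, against 20.97 to 21.79 in MEFs), miR-214-3p (11.99 and 11.78, against 14.63 to 15.22) and miR-145-3p (8.72 and 8.77, against 14.11 to 14.62) were below. As a description from libraries outside the comparison, 63.3% of the 98 miRNAs higher in NT-iPSCs had a mean VST at least 1 higher in MEFs than in ESCs, and 64.6% of the 96 lower ones had it at least 1 higher in ESCs than in MEFs, against 32.1% and 35.7% of all tested miRNAs. Of the 96 lower ones, 47 belong to the Sfmbt2 list described below, whose miRNAs share reads. That list held 0.55% to 0.69% of the ESC reads and 0.0511% to 0.0659% of the MEF reads. The part of feeder RNA in the differences between NT-iPSCs and iPSCs was not tested.

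Several other groups rose with let-7. The genes of miR-99a, miR-100 and miR-125 lie next to let-7 genes. Of 11 tested members of this list 5 were higher, against 13.4% of all tested miRNAs. None was lower, and the median was 1.42. miR-125b-5p, a partner of let-7 in repressing Lin28, had a VST of 16.68 and 16.54 in NT-iPSCs and of 14.48 and 14.74 in iPSCs, a difference of 2.00 ± 0.18 (limma adjusted p = 5.1e-05). miR-99a-5p (10.93 and 10.85 against 8.48 and 9.10) was higher by 2.10 ± 0.21 and miR-100-5p (10.51 and 10.35 against 9.12 and 8.91) by 1.42 ± 0.16. In contrast, miR-99b-5p, which has the same seed as miR-99a-5p, had a VST of 16.03 and 16.19 against 15.77 and 15.83, a difference of 0.31 ± 0.22 that did not pass (limma adjusted p = 0.329). Within 1 seed, then, the abundant member was not called and both rarer members were.

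Of 11 tested miRNAs encoded in the Hox clusters, which mark position along the body axis, 8 were higher and none was lower (median 1.48). The share called higher among all tested miRNAs, for this and the next groups, was 13.4%. miR-10a-5p had a VST of 16.40 and 16.06 in NT-iPSCs and of 14.27 and 14.36 in iPSCs, and was higher by 1.91 ± 0.15 (limma adjusted p = 2.4e-05). miR-10b-5p was higher by 1.98 ± 0.20 and miR-196a-5p by 1.22 ± 0.23. The groups did not overlap in 10 of the 11, where over all tested miRNAs 30.7% were higher without overlap. Of the miR-29 family, which represses collagens and DNA methyltransferases, 4 of 6 were higher, with miR-29a-3p at 19.79 and 19.50 against 17.84 and 18.28 (1.58 ± 0.18) and miR-29b-3p higher by 1.72 ± 0.26. miR-29c-3p had a difference of 0.45 ± 0.23 and was not called (limma adjusted p = 0.185). miR-221-5p (12.02 and 12.20 against 9.80 and 10.02) was higher by 2.19 ± 0.26 and miR-221-3p by 1.36 ± 0.33, and of the 4 tested arms of miR-221 and miR-222, which repress the cell cycle inhibitor p27, only miR-222-3p (15.84 and 17.38 against 15.54 and 15.92) was not called.

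The fibroblast markers moved with these groups as well, and their part was not tested. The miR-29 family held 3.57% and 2.97% of reads in NT-iPSCs, 1.47% and 1.74% in iPSCs and 0.186% to 0.263% in MEFs. The Hox cluster miRNAs held 0.363% and 0.292%, 0.136% and 0.125%, and 2.31% to 2.57%, respectively.

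Among the 12 miRNAs named for the largest higher differences were also 2 outside these groups. miR-483-5p, from an intron of the imprinted gene Igf2 (Mir483, chr7:142654924-142654996), had a VST of 9.81 and 10.38 in NT-iPSCs and of 7.55 and 7.24 in iPSCs, a difference of 2.70 ± 0.42 (limma adjusted p = 0.000826). Its level in MEFs was 14.26 to 15.21. miR-122-5p, best known as the main miRNA of liver, had a VST of 14.22 and 14.11 against 12.03 and 12.08 and was higher by 2.11 ± 0.26 (limma adjusted p = 0.000179). Here MEFs had 10.59 to 11.06, below all 4 libraries.

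The pluripotency clusters differed from each other. Of 9 tested members of the miR-302/miR-367 cluster, 6 were lower in NT-iPSCs, against 13.1% of all tested miRNAs. None was higher, and the median was -2.18. miR-302a-3p had a VST of 8.74 and 8.41 in NT-iPSCs (120 and 94 reads) and of 11.14 and 11.19 in iPSCs (713 and 740 reads), a difference of -2.60 ± 0.31 (limma adjusted p = 0.000136). miR-302d-3p had 10.48 and 9.84 against 12.38 and 12.82, a difference of -2.45 ± 0.32 (limma adjusted p = 0.000221). miR-367-3p was lower by 2.13 on this scale (6.45 and 6.35 against 8.99 and 8.09, SE 0.38). The cluster was rare, with 0.0322% and 0.0222% of the reads in NT-iPSCs and 0.141% and 0.144% in iPSCs. Its genes Mir302b, Mir302c, Mir302a and Mir302d lie within chr3:127545228-127545689, in an intron of Larp7 on its opposite strand.

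The members of the miR-302/miR-367 cluster that were not called were miR-302a-5p, miR-302b-3p and miR-302b-5p. For the first of these, NT-iPSCs had a VST of 12.45 and 11.86 and iPSCs 13.52 and 13.79, and for miR-302b-3p they had 9.53 and 8.94 against 11.29 and 11.31. The groups did not overlap for either. The standard errors of both, 0.83 and 0.85, come from a model of all 12 libraries in which MEFs had 0 to 2 and 0 to 3 reads, respectively, and on the VST scale a few reads spread widely. In a fit of the 6 reprogrammed libraries alone, the standard errors were 0.25 and 0.24 and both were lower (limma adjusted p = 0.0147 and 0.00588), so that 7 of 9 members were called, although miR-302c-5p, at 8 and 2 against 73 and 15 reads, was then lost (limma adjusted p = 0.105). The call of miR-302c-5p was also lost without NT-iPSC 52 (0.239) or iPSC 62 (0.268).

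The miR-290 to miR-295 cluster, the main miRNA cluster of mouse ESCs, had few calls. Of 14 tested members, 2 were higher and 1 was lower, close to the percentages over all tested miRNAs, and the median was 0.18. miR-290-3p was higher by 0.75 ± 0.23 (10.60 and 10.98 against 9.91 and 10.17, limma adjusted p = 0.0347) and miR-295-5p by 0.64 ± 0.20 (15.82 and 15.92 against 15.06 and 15.40, limma adjusted p = 0.0347), whereas miR-291b-5p was lower by 0.61 on this scale (13.19 and 13.49 against 14.07 and 13.83, SE 0.19, limma adjusted p = 0.0356). The abundant strands were not called: miR-290-5p differed by 0.59 ± 0.76, miR-293-3p by -0.68 ± 0.70 and miR-294-3p by 0.47 ± 1.04. In the fit of the 6 reprogrammed libraries the median standard error of the cluster dropped from 0.77 to 0.18, and the counts were again 2 higher and 1 lower. The 3 calls were narrow, and each was lost when iPSC 62 was left out (limma adjusted p = 0.149 for miR-290-3p, 0.182 for miR-295-5p and 0.165 for miR-291b-5p): total read scaling left miR-290-3p at 0.21 and miR-295-5p at 0.09 and both uncalled, upper quartile scaling left miR-291b-5p at -0.43 and uncalled, and the sign of most uncalled members turned under some scaling. The cluster held 14.4% and 13.5% of the NT-iPSC reads and 16.4% and 20.7% of the iPSC reads, far above the share of miR-302/miR-367.

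**Figure D3:**
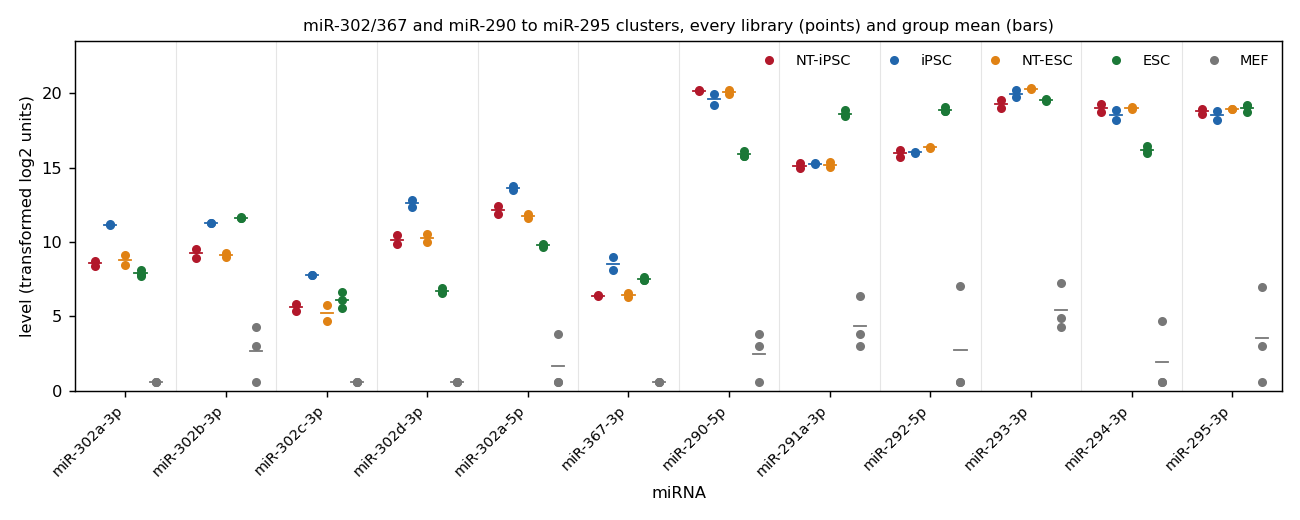
VST (transformed log2 units) of 6 miR-302/miR-367 and 6 miR-290 to miR-295 miRNAs in every library of the 5 cell types (points) with the group mean (bar). The NT-iPSC points lie below the iPSC points for all 6 miR-302/miR-367 miRNAs, beside those of NT-ESCs, while the points of the miR-290 to miR-295 miRNAs overlap or nearly touch.

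The largest block of lower miRNAs came from 1 locus. An intron of Sfmbt2, an imprinted Polycomb gene on chromosome 2, holds a long array of repeated hairpins of the miR-297, miR-466, miR-467 and miR-669 families. Of 73 tested members of this list, 47 were lower in NT-iPSCs, against 13.1% of all tested miRNAs. None was higher, and the median was -1.25. In 71 both NT-iPSC libraries were below both iPSC libraries, against 32.4% of all tested miRNAs. By GENCODE M21 (GRCm38), 67 of the 73 have a hairpin in an intron of Sfmbt2 on its strand, within chr2:10466663-10518279, and 45 of these 67 were lower. The arrayed miRNAs share sequences, and several of their values repeat the same reads: the 73 reduce to 62 distinct read profiles and the 47 calls to 37.

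The most abundant of the locus, miR-669c-5p, picked out after its values were seen, made up 2.03% and 2.24% of the NT-iPSC reads and 7.72% and 5.58% of the iPSC reads. Its VST was 19.03 and 19.15 against 20.31 and 20.03, a difference of -1.08 ± 0.20 (limma adjusted p = 0.00279). miR-467a-5p, whose reads are nearly the same as those of miR-467b-5p, had 13.66 and 13.71 against 15.55 in both iPSC libraries and the largest difference of the well expressed members, -1.87 ± 0.18 (limma adjusted p = 5.1e-05). miR-669f-3p followed with -1.75 ± 0.32, miR-466d-5p and the identical miR-466n-5p with -1.65 ± 0.24, and miR-466b-5p and the identical miR-466o-5p with -1.63 ± 0.35. The 2 iPSC libraries themselves differed for some of them, as for miR-466b-5p with 11.29 and 10.50, but stayed above the NT-iPSC values of 9.32 and 9.22, and without iPSC 62 the difference of miR-466b-5p was -1.23 and not called (limma adjusted p = 0.0541). The list held 2.57% and 2.81% of the NT-iPSC reads and 10.1% and 7.54% of the iPSC reads, a mean share of 0.305 times that of iPSCs, and 0.0511% to 0.0659% of the MEF reads. Without NT-iPSC 52, 30 of its members were called in place of 47.

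NT-ESCs, made by moving a MEF nucleus into an oocyte without the factor step, allowed these differences to be set beside others. The iPSC or NT-iPSC libraries are shared between the comparisons. For the Sfmbt2 list, 4 of 73 miRNAs were lower in NT-ESCs than in iPSCs (median -0.21) and 31 were lower in NT-iPSCs than in NT-ESCs (median -1.07). For miR-467a-5p the difference between NT-iPSCs and NT-ESCs was -1.15 (limma adjusted p = 0.00561). It was also lower in NT-ESCs than in iPSCs, with a difference of -0.72 (limma adjusted p = 0.0165). The Sfmbt2 list held 4.57% and 5.25% of the NT-ESC reads, between its shares in NT-iPSCs and iPSCs. For the let-7 family, 13 of 17 were higher in NT-ESCs than in iPSCs (median 1.87) and 1, let-7i-5p, was higher in the NT-iPSC libraries than in NT-ESCs (1.08, limma adjusted p = 0.0372). For the miR-302/miR-367 cluster, 5 of 9 were lower in NT-ESCs than in iPSCs (median -2.16) and none passed between NT-iPSCs and NT-ESCs (median -0.03). Between NT-ESCs and iPSCs, 9 of 12 fibroblast markers were higher and 1 lower, and of the miR-99a, miR-100 and miR-125 list 4 of 11 were higher and 1 lower. Of the Hox cluster miRNAs 6 of 11 were higher in NT-ESCs, of the miR-29 family 4 of 6 and of miR-221 and miR-222 2 of 4, and none was lower. Between NT-iPSCs and NT-ESCs, 1 fibroblast marker and 1 of the miR-99a list were higher, and no other member of these groups was called. Over all tested miRNAs, 25.7% passed between NT-ESCs and iPSCs and 12.8% between NT-iPSCs and NT-ESCs.

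The imprinted Dlk1-Dio3 region of chromosome 12, whose maternal allele expresses a large miRNA array and whose activity in mouse iPSCs has been tied to their developmental potential, was active in both types. Of 95 tested members, 13 were lower in NT-iPSCs and none was higher, which is near the 13.1% called lower over all tested miRNAs, and the median was -0.41. miR-134-5p, at 15.57 and 15.75 in NT-iPSCs and 17.10 and 17.22 in iPSCs, was lower by 1.50 on this scale (SE 0.19, limma adjusted p = 0.000219). miR-770-3p, from an exon of Meg3 (Mir770, chr12:109563692-109563785), had 11.65 and 11.07 against 12.84 and 13.26, a difference of -1.69 ± 0.24 (limma adjusted p = 0.000395). miR-431-5p, antisense to an exon of Rtl1, had 10.53 and 10.60 in NT-iPSCs and 13.24 and 11.35 in iPSCs, so that its difference of -1.73 ± 0.46 (limma adjusted p = 0.0175) rests on iPSC libraries that differed from each other by 1.89. Without iPSC 62 its difference was -0.78 and was not called (limma adjusted p = 0.0686), and the call was also lost without NT-iPSC 51 or 52 (0.0778 and 0.0662) and in fits of the 4 (0.185) or the 6 reprogrammed libraries (0.107). miR-434-3p and miR-665-3p were lower by 0.92 and 1.05. The list held 7.58% and 8.24% of the NT-iPSC reads against 15.5% and 15.7% of the iPSC reads, but the count of calls depends on the scaling: 6 with upper quartile scaling, 51 without the 10 most abundant miRNAs and 57 with total read scaling. It was 8 without iPSC 63. In NT-ESCs, 54 of the 95 were lower than in iPSCs (median -0.93), and 18 exceeded the NT-ESC level in NT-iPSCs (median 0.54).

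**Figure D4:**
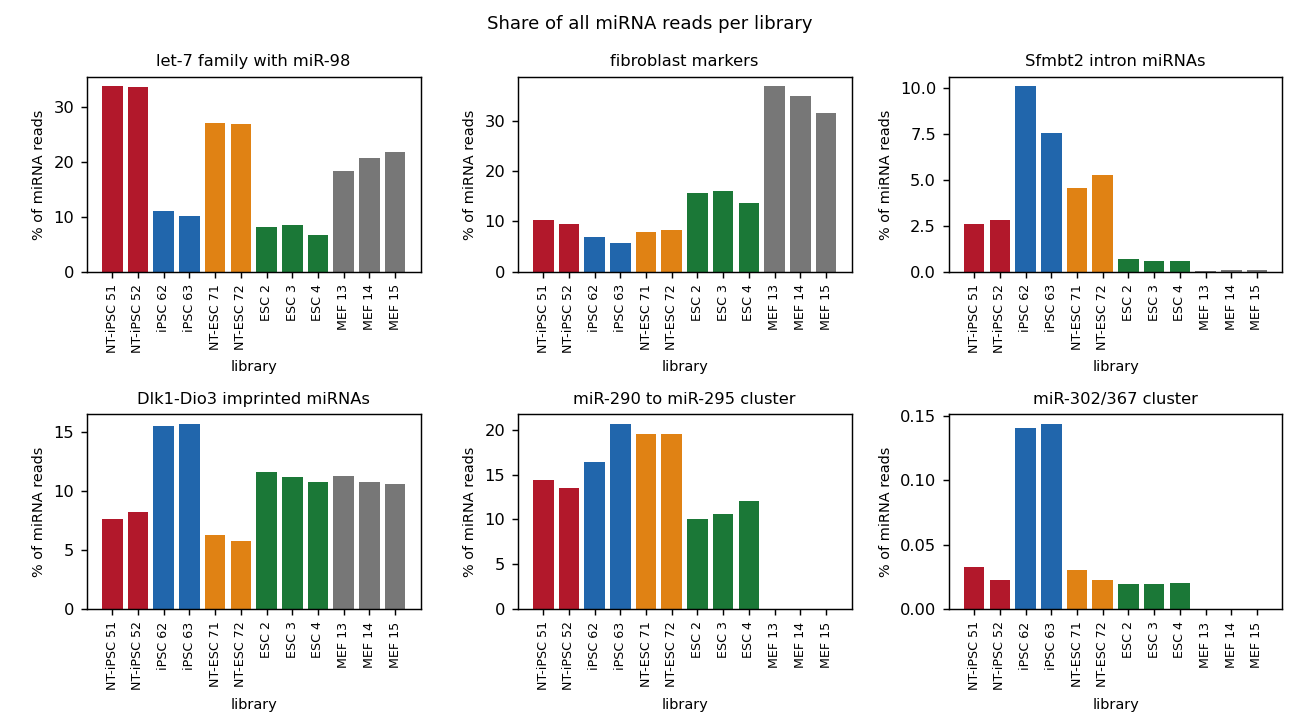
Share of all miRNA reads (percent, axes differ) taken by 6 lists in each of the 12 libraries, 1 bar per library, coloured by cell type. NT-iPSCs have the highest let-7 shares (33.7% and 33.5%), and iPSCs have the highest shares of the Sfmbt2 (10.1% and 7.54%), Dlk1-Dio3 (15.5% and 15.7%) and miR-302/miR-367 (0.141% and 0.144%) lists.

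Outside these loci, miR-210-3p, the miRNA best known for its induction in low oxygen, had a VST of 12.25 and 13.04 in NT-iPSCs and of 14.38 and 14.32 in iPSCs, a difference of -1.71 ± 0.26 (limma adjusted p = 0.000782). NT-ESCs were at 13.91 and 14.27 and ESCs at 13.77 to 14.18, so NT-iPSCs were below all other pluripotent libraries, and their difference from NT-ESCs was -1.45 (limma adjusted p = 0.00929). Its other arm, miR-210-5p, was lower as well, by 1.40 on this scale (8.08 and 8.34 against 9.53 and 9.70, SE 0.37, limma adjusted p = 0.0177). No list holds this miRNA.

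Markers of epithelial, neural, muscle and blood cells were tested as well. Of 9 tested members of the miR-200 family, which keeps cells epithelial, none was higher and 2 were lower, namely miR-200c-3p (11.07 and 11.68 against 12.42 and 12.35, -1.01 ± 0.31) and miR-200c-5p (0 and 1 reads against 11 and 7). Of 11 neural markers, 4 were higher and 7 were not called, with differences down to -1.17. Among the higher ones were miR-9-3p at 1.17 ± 0.18 and miR-124-5p at 1.79 ± 0.41. The other arm, miR-124-3p, differed by 0.12 ± 0.45 and was not called (limma adjusted p = 0.88). Of 5 muscle markers, miR-206-3p was higher, by 1.98 ± 0.22 (13.15 and 13.24 against 11.21 and 11.22), while miR-1a-3p differed by 0.07 ± 0.21. Of 10 blood and endothelial markers, miR-146a-5p was higher, by 1.58 ± 0.18. Over all tested miRNAs 13.4% were higher and 13.1% lower. The read shares of the neural list were 0.342% and 0.457% against 0.418% and 0.452%, and of the muscle list 0.196% and 0.185% against 0.252% and 0.205%. The muscle list was abundant in MEFs, with 10.7% to 12.7% of the reads, against 0.0489% to 0.0569% in ESCs. Unlike the share of the fibroblast list, its share was not higher in NT-iPSCs than in iPSCs.

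In the miR-17 to miR-92a cluster, which promotes cell division, 2 of 12 were higher, both rare strands, miR-19b-1-5p (24 and 11 reads against 6 and 0) and miR-20a-3p (39 and 27 against 13 and 22). Of 9 tested members of the miR-181 family 4 were higher (median 0.57), of 11 in the miR-23, miR-27 and miR-24 clusters 3 were higher (median 0.41), of 10 imprinted miRNAs outside Dlk1-Dio3 2 were higher, and of 11 in the miR-30 family 1 was higher. The miR-34 and miR-449 family and the miR-130 and miR-301 family had 1 lower of 8 each. Beside these counts, 13.4% of all tested miRNAs were higher and 13.1% were lower. In the paralogous miR-106a to miR-363 cluster 1 of 10 was higher, and none of 6 in the miR-106b to miR-25 cluster was called in either direction. None of the 13 miRNAs of the miR-15/16 family, of the 6 of the miR-183, miR-96 and miR-182 cluster, of the 6 of the miR-148 and miR-152 family, or of the 27 of the X-linked miR-465 and miR-743 cluster was called by limma. Of these 58 miRNAs, with the miR-106b to miR-25 cluster counted in, 1 (miR-148a-5p) had an unadjusted limma p under 0.05, and 1 (miR-96-3p) was called when voom was applied to the recovered reads.

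**Figure D5:**
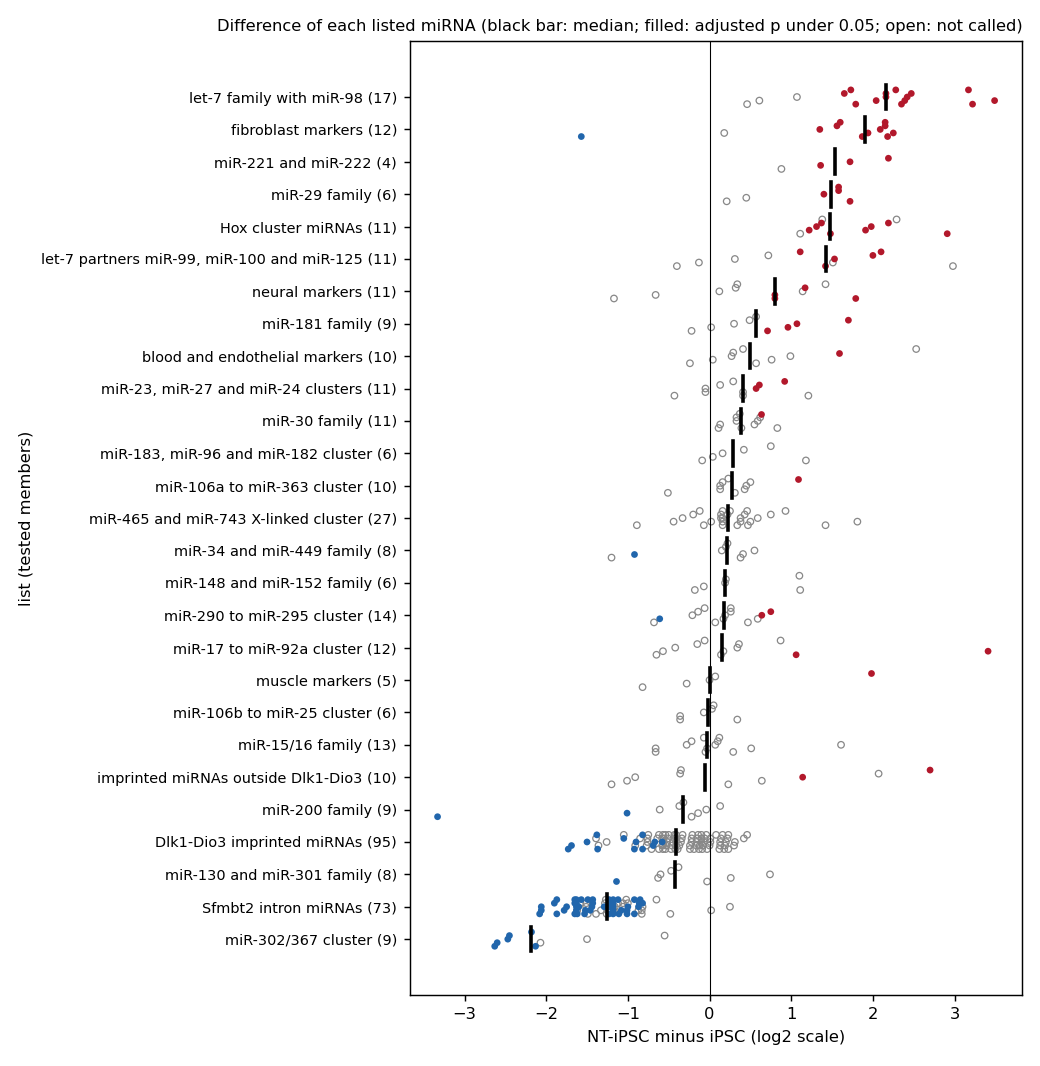
Difference between NT-iPSCs and iPSCs (log2 scale) of each tested miRNA in 27 lists, 1 row per list ordered by its median (black bar), filled red or blue where called higher or lower and open where not. The let-7 family (median 2.16) and the fibroblast markers (1.91) are at the top, and the Sfmbt2 miRNAs (-1.25) and the miR-302/miR-367 cluster (-2.18) at the bottom.

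Both arms of a hairpin were tested in 263 cases. Both arms were called in 37 of these, 13 higher and 24 lower, and in 0 cases in opposite directions. Most of the 24 belong to the Sfmbt2 list, whose miRNAs share reads, so they are not all separate. In 68 hairpins 1 arm was called and in 158 neither. By chromosome, among the 630 tested members whose GENCODE hairpins all lie on 1 chromosome, chromosome 2 held 44 of the 89 lower calls among its 89 tested miRNAs, and chromosome 12 held 14 among 108. The chromosome 2 count largely repeats the Sfmbt2 result and is no separate pattern. Of the 67 tested miRNAs with a hairpin in an Sfmbt2 intron, 45 were lower. The 72 higher calls were spread, with no more than 9 on a chromosome (11, of 37 tested).

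Some miRNAs varied within a type by as much as the called differences. Between the NT-iPSC libraries the largest gaps among well expressed miRNAs were those of miR-341-3p (14.51 and 16.39), miR-296-3p (12.72 and 14.47) and miR-124-3p (13.75 and 15.43). None of these 3 passed between the types. Between the iPSC libraries they were those of miR-431-5p, given with its locus, miR-410-3p (13.57 and 12.33) and miR-20a-5p (12.92 and 11.89), of which miR-431-5p alone passed.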

How the data were processed

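Small RNA was sequenced (Solexa) from 2 RNA batches of NT-iPSCs and 2 of iPSCs. Per the study's methods, the authors cleaned and annotated the reads, divided miRNA counts by DESeq size factors and applied its variance stabilising transformation, and they deposited the resulting log2 values, 1 for each miRNA in each library. The submitters' processing notes list the build mm8, and the miRBase release is not given in the sources used here. The transformation was inverted, which gave whole reads within 0.05 read for 100% of the nonzero values (largest deviation 0.0162), and the values recomputed from them differed from the deposited ones by at most 0.0034. These reads gave depths, shares, filters and other scalings, and their floors cover counting error only.

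The deposited values of 732 miRNAs (at least 10 reads in at least 2 of 12 libraries) were fitted with limma 3.58.1 (R 4.3.3) in 1 model with a mean per cell type (7 residual and 3.82 prior degrees of freedom), moderated with a trend and Benjamini-Hochberg adjusted over all 732 at 0.05. The named miRNAs were the 12 in each direction with the largest difference among those called, without overlap and with a group mean over 10 in the higher type, all tested let-7, miR-302/miR-367 and miR-290 to miR-295 members, and the 3 with the largest gap within each type. Members of the other lists and miR-210-5p were named as examples after their values were seen. The members and lists were chosen with earlier results of these data known. Alternatives were other scalings, log2 of normalised reads with a pseudocount of 1 or 10, voom, read filters, fewer libraries, no trend, identical miRNAs counted once, a minimum difference of 1, and each library left out. Scaling to total reads and the counts of the Sfmbt2, fibroblast and Dlk1-Dio3 lists under all alternatives were added after the data were seen. On simulated data for this comparison (732 miRNAs, 200 changed), the fit called 50% of changes of 1, 75% of changes of 2 and 0.94% of the miRNAs left unchanged. With no change simulated, 0 were called. The same size factors made and normalised the simulated counts, and each figure is from 1 random draw. Errors of scaling are therefore not covered by these figures. Mature sequences were those of RefSeq (GRCm38.p6), which matched 638 of the 838 members by name. Hairpin positions were those of GENCODE M21 (GRCm38), found by name. Python 3.11.15, numpy 2.4.6, pandas 2.3.3 and matplotlib 3.10.9 were used.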

Additional observations from a re-analysis of the deposited data

How the results depend on the processing

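No paired analysis was possible because the replicate numbers of NT-iPSCs and iPSCs are not shared. Under the alternatives, each library left out included, the 39 named miRNAs that were called kept their direction in 963 of 963 recomputed values, but 59 of these values were no longer called, and 25 of the 39 lost their call under none of the alternatives. The kept direction was largely fixed in advance and says little about robustness. The called groups did not overlap, so leaving out 1 library could not turn a sign. The other scalings shift the differences by at most 0.54 in size, and the smallest called difference of a named miRNA was 0.61 in size. With only the 4 libraries 12 of the 39 lost the call. With only the 4 libraries the calls fell to 107 in all (55 higher, 52 lower), 6 of the fibroblast and 4 of the Dlk1-Dio3 list, and fewer residual degrees of freedom go with that fit. Leaving out the 10 most abundant miRNAs gave 195 lower and 51 Dlk1-Dio3 calls, and total read scaling, chosen after seeing the data, gave 61 higher, 229 lower and 57 Dlk1-Dio3 calls, with the shifts given above. The Dlk1-Dio3 count was 6 with upper quartile scaling, 23 with voom and 6 with a minimum difference of 1, and the cause was not tested. With a filter of 100 reads in each library of a type, 3 of the miR-302/miR-367 cluster were called, since fewer members were tested. Leaving out 1 library gave 132 to 204 calls in all, 71 to 103 higher, 61 (without NT-iPSC 52) to 101 lower, 11 to 14 of let-7, 5 to 7 of miR-302/miR-367, 30 (without NT-iPSC 52) to 50 of Sfmbt2, 8 to 10 of the fibroblast list and 8 (without iPSC 63) to 15 of Dlk1-Dio3. Where that left a type with 1 library, it was assumed to vary like the others.

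Signs turned only for named miRNAs that were not called, and the cause was not tested. Total read scaling gave let-7i-3p -0.02, miR-291a-5p -0.37, miR-291b-3p -0.47, miR-292-3p -0.29, miR-293-5p -0.36, miR-294-3p -0.07, miR-295-3p -0.29, miR-124-3p -0.42 and miR-20a-5p -0.19. Leaving out the 10 most abundant gave miR-291a-5p -0.25, miR-291b-3p -0.35, miR-292-3p -0.17, miR-293-5p -0.24, miR-295-3p -0.16, miR-124-3p -0.30 and miR-20a-5p -0.06. Upper quartile scaling gave miR-291a-3p 0.03 and miR-292-5p 0.11. Leaving out 1 library gave let-7i-3p -1.0 to 1.92, miR-291a-3p -0.31 to 0.03, miR-291b-3p -0.33 to 0.47, miR-292-3p -0.04 to 0.55, miR-292-5p -0.27 to 0.15, miR-294-5p -0.45 to 0.03, miR-295-3p -0.03 to 0.55, miR-296-3p -0.24 to 1.52, miR-124-3p -0.72 to 0.96, miR-410-3p -1.20 to 0.04 and miR-20a-5p -0.16 to 0.87. Depth limits the rare strands: 3 reads were 0.400 to 0.567 CPM.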

Other observations

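Of the 194 called miRNAs, 57 belong to none of the lists, 33 higher and 24 lower in NT-iPSCs. Those below were picked out after their values were seen. Some arms of neighbouring hairpins were higher together. miR-132-3p and miR-212-5p, from a pair of neighbouring hairpins induced by CREB in neurons, had a VST of 8.91 and 9.41 against 7.52 and 7.77 and of 10.15 and 10.21 against 8.65 and 8.87, and were higher by 1.52 ± 0.21 and 1.42 ± 0.28. miR-193b-5p and miR-365-3p, likewise neighbours although miR-365-3p has another gene as well, were higher by 1.89 ± 0.48 and 1.95 ± 0.43. Both arms of miR-31 were higher, miR-31-5p (14.78 and 15.03 against 13.68 and 14.07) by 1.03 ± 0.28 and miR-31-3p by 1.20 ± 0.36. The NT-iPSC libraries were above the iPSC libraries for each of these. Among other arms of these hairpins, miR-132-5p was called higher (1.70), while miR-212-3p (0.33) and miR-193b-3p (0.70) were not called.

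Among the lower ones, miR-188-5p had 13 and 14 reads in NT-iPSCs against 122 and 99 in iPSCs (-2.79 ± 0.27, limma adjusted p = 5.1e-05). miR-421-3p, encoded on the X chromosome, had a VST of 9.97 in both NT-iPSC libraries and of 11.63 and 11.55 in iPSCs (-1.61 ± 0.28). miR-203-3p, which restrains stemness in skin, was at 9.87 and 9.80 against 10.93 and 11.12 (-1.19 ± 0.19). miR-33-5p, from an intron of Srebf2, was at 13.02 and 12.95 against 13.69 and 14.19 (-0.96 ± 0.24). The abundant miR-103-3p was lower by 0.66 on this scale (19.04 and 18.85 against 19.42 and 19.78, SE 0.21, limma adjusted p = 0.0356), and miR-423-5p, at 19.19 and 19.33 against 18.25 and 18.28, was higher by 1.0 (SE 0.32, limma adjusted p = 0.0386).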
